A study of Homo sapiens with 16 samples.

Results

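The genes described here encode the subunits of COPII, the protein coat that buds transport vesicles from the endoplasmic reticulum (ER). They were chosen by gene family and matched by symbol through the Ensembl identifiers of the count table: SAR1A, SAR1B, SEC23A, SEC23B, SEC24A, SEC24B, SEC24C, SEC24D, SEC13 and SEC31A, 10 of 58051 genes. Earlier results of these data were known when the family was chosen. RNA was sequenced from LNCaP, an established line of human prostate cancer cells, at passage 20, as 16 libraries in 4 groups of 4. The siCtrl group was transfected with Allstar control siRNA and the siXBP1 group with siRNA against XBP1, each for 2 days. The Vehicle group received DMSO and the MKC8866 group received 10 µM MKC8866, an inhibitor of the RNase of IRE1α, each for 24 h. Every group then received 30 nM thapsigargin, an inhibitor of the ER calcium pump that causes ER stress, for 3 h, so the libraries hold no unstressed cells. The comparisons ask which coat transcripts differed in stressed cells that had lost XBP1 or had IRE1α's RNase blocked, each against its own control. The libraries held 28713607 to 34509488 counted fragments, with a median of 30743136. Every member passed the filter on low counts in both comparisons, and the lowest count of a member in a library was 1533, for SEC24D in siXBP1.

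A COPII vesicle starts when SAR1, a small GTPase, binds GTP, inserts into the ER membrane and recruits the inner coat of SEC23 and SEC24, where SEC24 binds cargo and SEC23 speeds the hydrolysis of GTP by SAR1. SEC13 and SEC31 then assemble the outer cage that bends the membrane, and the vesicle carries newly made proteins towards the Golgi. Under ER stress, IRE1α splices the XBP1 transcript into the form that encodes the transcription factor XBP1s, which is known for driving genes of secretion in secretory cells, to which luminal prostate cells belong.

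XBP1 (ENSG00000100219), the target of the siRNA, stood at 382, 426, 365 and 362 CPM (counts scaled to a common library size by TMM over the 16 libraries) in siCtrl replicates 1 to 4. In siXBP1 replicates 1 to 4 it stood at 51.5, 54.2, 54.4 and 53.4 CPM. The siXBP1 libraries were all far below the siCtrl libraries, as their labels state. The log2 fold change of XBP1 was −2.85 ± 0.05 (SE), with an adjusted p of 2.92e-20 in edgeR's quasi-likelihood test over 21021 genes, lower in 4 of 4 libraries. In the inhibitor experiment XBP1 was at 486, 536, 479 and 503 CPM in Vehicle and at 581, 614, 574 and 540 CPM in MKC8866. The ranges of these groups lay side by side without overlap, MKC8866 above, and the total XBP1 transcript rose by a log2 of 0.20 (adjusted p 0.00493). These counts sum spliced and unspliced forms, so they do not show the step that MKC8866 blocks. DNAJB9 (ENSG00000128590), an ER chaperone gene known as a target of XBP1s, ranged over 209 to 242 CPM in siCtrl and 43.0 to 48.2 CPM in siXBP1. It ranged over 170.4 to 190 CPM in Vehicle and 43.2 to 55.5 CPM in MKC8866. DNAJB9 was thus low in both treated groups, with log2 fold changes of −2.31 and −1.87. All 8 luminal markers checked had a mean of at least 1 CPM in all 4 groups, as did 3 of 14 markers of other cell types, of which COL1A1 was the highest, with group means of 27.5 to 33.0 CPM. In these bulk samples, fewer cells with a transcript and less of it per cell cannot be told apart. The p-values measure the spread between these libraries, which may be technical, since the study calls them independent samples but the labels do not say whether these were separate cultures.

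After XBP1 knockdown, 9 of the 10 coat genes were lower at an adjusted p under 0.05 in edgeR, where 18.2% of all tested genes were called lower. None was higher (0 of 10 in edgeR, 0 in DESeq2 and 0 at an unadjusted p under 0.05), where 16.5% of all tested genes were called higher. The median log2 fold change was −0.59 over the coat genes and 0.00 over the 21021 tested genes. With MKC8866, 7 of the 10 coat genes were lower, where 3.11% of all tested genes were called lower. As in the knockdown, 0 coat genes were called higher in edgeR, 0 in DESeq2 and 0 at an unadjusted p under 0.05, where 1.36% of all tested genes were called higher. The median log2 fold change with MKC8866 was −0.24 over the coat genes and 0.00 over the 21045 tested genes. SEC24B was called in neither comparison, and SAR1A and SAR1B were not called with MKC8866. The MKC8866 counts depended on the fit. With a block on replicate number, 9 coat genes were lower, SAR1A and SAR1B among them. Of all tested genes, 1484 were then lower and 1262 higher, in place of 654 and 287. All 4 siXBP1 libraries lay below all 4 siCtrl libraries for 9 members, where 16.7% of all tested genes did so. All 4 MKC8866 libraries lay below all 4 Vehicle libraries for 6 members, where 5.15% of all tested genes did so.

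**Figure D1:**
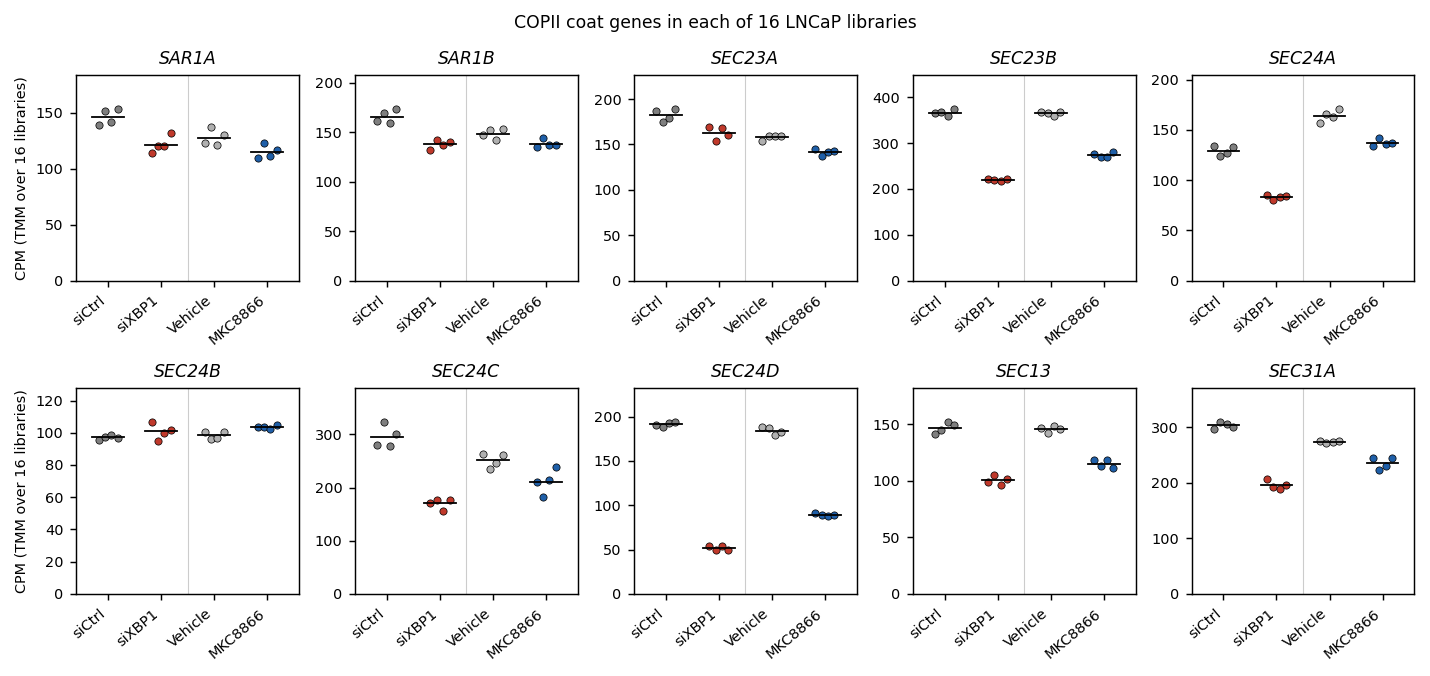
Level of each COPII coat gene in CPM (vertical axis, starting at 0) in each of the 16 libraries, with dots for libraries and a bar for the mean of 4; the vertical line parts the knockdown experiment from the inhibitor experiment. SEC24D lies at 49.2 to 54.6 CPM in siXBP1 against 188 to 194 CPM in siCtrl, while SEC24B stays near 100 CPM throughout.

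**Figure D2:**
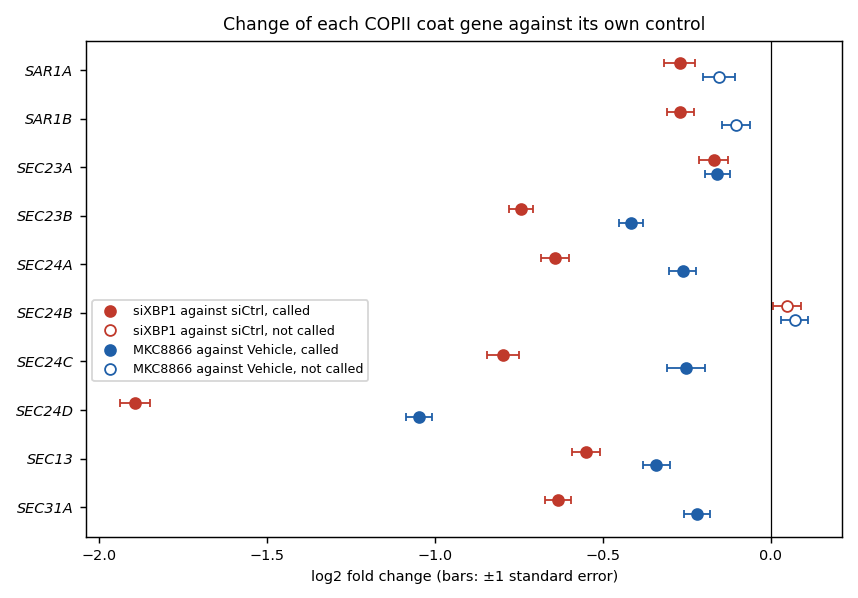
Log2 fold change (horizontal axis) of each coat gene in siXBP1 against siCtrl and in MKC8866 against Vehicle, with bars of 1 standard error and filled dots for an adjusted p under 0.05. SEC24D lies farthest to the left in both comparisons, at −1.89 and −1.05, and SEC24B lies near 0.

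Between genes, levels were compared as FPKM, which is CPM divided by the exon length in kilobases. That length sums all annotated exons of a gene, and whether these cells use all of them was not tested. The order of genes and their shares depend on it. SEC23B, SEC24C and SEC31A had the highest mean FPKM in all 4 groups, in that order as counted, and the ranges of their libraries did not overlap within a group. In the annotation 42.9% of the exon bases of SEC24C overlap a gene on the opposite strand, ENSG00000279689, and fragments that touch both were not counted, so the FPKM of SEC24C is a lower limit and its place below SEC23B is not settled. In siCtrl these means were 90.7 FPKM for SEC23B, 55.4 FPKM for SEC24C and 33.2 FPKM for SEC31A, with SEC13 next at 27.0 FPKM. The 6 genes below SEC13 in siCtrl spanned 15.1 FPKM for SAR1B to 21.2 FPKM for SAR1A. Among those, the neighbours SAR1A and SEC23A overlapped in their library ranges, as did SEC24B and SEC24A. SEC24D was 7th in siCtrl at 19.3 FPKM and 10th in siXBP1 at 5.21 FPKM. In Vehicle it was 7th at 18.6 FPKM, overlapping its neighbours SEC24B and SAR1A, and in MKC8866 it was 10th at 8.99 FPKM. SEC24D thus went from 7th in the order to its bottom in both experiments, clear of SEC24A above it in siXBP1 and of SAR1B in MKC8866. SEC24B moved the other way in rank, from 8th in siCtrl to 4th in siXBP1, where its range overlapped those of SEC13, SEC23A and SAR1A below it. In the inhibitor experiment SEC24B went only from 6th in Vehicle to 5th in MKC8866, overlapping a neighbour in each group.

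Promoters of 9 of the 10 members, all but SEC24D, were found in the RefSeq table of build GRCh38.p14, as 14 windows from 250 bases before to 50 bases after a start. Because most members fell when XBP1 was lost or its splicing enzyme inhibited, the windows were searched on both strands for letters linked to XBP1s and ER stress. The motif GCCACGT was in 6 of 9 members (SAR1A, SEC23A, SEC24A, SEC24C, SEC13 and SEC31A) and in 3.22% of all 35116 promoters, or 3.95% of 27305 genes. The motif TGACGTG was in 3 of 9 members (SEC23A, SEC24A and SEC13) and in 1.97% of all promoters, or 2.4% of genes. The reverse complement of GCCACGT overlaps TGACGTG, so the run TGACGTGGC holds both. CCAAT followed by CCACG after 9 bases was in 0 of 9 members and in 0.0769% of all promoters. At least 1 of these motifs was in 6 of 9 members and in 4.91% of all promoters, or 5.98% of genes. None of the 3 was found in the windows of SAR1B, SEC23B or SEC24B, of which SEC23B fell strongly and SEC24B was not called. The RefSeq starts of SAR1B and SEC23A lie inside the genes as the count table places them, away from their 5′ ends there. Most of the SEC31A starts do so too. Windows from the 6 genes with a match are shown so that motifs, in capitals on either strand, can be read in place. The window of SEC13 shows its TGACGTG, on the opposite strand, and its GCCACGT lies outside that window. They are read 5′ to 3′ on the strand of the gene, from chr10:70170665-70170764 (minus) for SAR1A, chr14:39103226-39103255 (minus) for SEC23A and chr5:134648535-134648784 (plus) for SEC24A. Those of the other genes are from chr10:73744272-73744371 (plus) for SEC24C, chr3:10321203-10321302 (minus) for SEC13 and chr4:82900570-82900669 (minus) for SEC31A.
SAR1A: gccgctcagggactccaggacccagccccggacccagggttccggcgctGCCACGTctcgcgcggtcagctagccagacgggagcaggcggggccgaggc
SEC23A: ccccgtcccctcctctTGACGTGGCagagg
SEC24A: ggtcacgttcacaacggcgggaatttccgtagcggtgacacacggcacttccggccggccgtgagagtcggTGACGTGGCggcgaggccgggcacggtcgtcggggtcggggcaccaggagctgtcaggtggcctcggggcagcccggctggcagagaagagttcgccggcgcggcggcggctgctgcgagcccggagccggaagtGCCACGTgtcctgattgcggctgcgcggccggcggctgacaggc
SEC24C: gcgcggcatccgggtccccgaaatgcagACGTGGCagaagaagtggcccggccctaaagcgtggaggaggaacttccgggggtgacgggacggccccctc
SEC13: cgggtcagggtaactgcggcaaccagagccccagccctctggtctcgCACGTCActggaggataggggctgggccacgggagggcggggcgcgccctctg
SEC31A: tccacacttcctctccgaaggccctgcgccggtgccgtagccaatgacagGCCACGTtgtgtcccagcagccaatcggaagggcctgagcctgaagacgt
SEC23A and SEC24A each carry the run that holds both motifs, and SEC24A has a second GCCACGT 44 to 38 bases before its start. In SEC23A the run TGACGTGGC spans the start itself, from base −4 to base 5. All 4 SEC31A promoters and both SEC13 promoters in the table hold at least 1 match. The SEC13 windows overlap and share their matches, and some SEC31A windows overlap and share a match, so these are not all separate sites. These are matches of letters in a window and not measured binding.

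SAR1A (ENSG00000079332, chr10:70147289-70170523, minus strand) and SAR1B (ENSG00000152700, chr5:134601144-134649271, minus strand) encode the GTPases that start the coat; SAR1B is known for the export of chylomicrons. SAR1A ranged over 139 to 153 CPM in siCtrl and 114 to 132 CPM in siXBP1. SAR1B ranged over 159 to 174 CPM in siCtrl and 132 to 142 CPM in siXBP1. Both were moderately lower after the knockdown, with no overlap between groups. The log2 fold change was −0.27 ± 0.05 (SE) for SAR1A (adjusted p 7.35e-05) and −0.27 ± 0.04 for SAR1B (adjusted p 1.41e-05). With MKC8866, SAR1A lay at 109, 123, 111 and 117 CPM against 123, 137, 121 and 130 CPM in Vehicle. The highest MKC8866 library reached above the lowest Vehicle library, so the groups overlapped. The log2 fold change of SAR1A was −0.15 ± 0.05 (SE, adjusted p 0.0687), which did not pass. This result sat near the threshold and passed it under some alternatives, among them DESeq2 (adjusted p 0.0378), no filter on low counts (0.0323) and a fit without MKC8866 replicate 2 (0.00900), within a range of 3.71e-05 to 0.219 over 15 alternatives. SAR1B likewise overlapped between MKC8866 and Vehicle, with a log2 fold change of −0.10 ± 0.04 (SE, adjusted p 0.200). At each replicate number, however, both genes were lower in MKC8866 than in Vehicle. With a block on replicate number in edgeR, SAR1A (adjusted p 3.71e-05) and SAR1B (0.00531) both passed. The libraries were taken as unpaired because not every same-number correlation was over 0.1 (range 0.08 to 0.33). The balance between SAR1A and SAR1B moved little. SAR1A made up 58.3% ± 0.46 (SD, n = 4) of the summed SAR1 FPKM in siCtrl, 58.3% in siXBP1, 57.7% in Vehicle and 56.8% in MKC8866. By counts SAR1B was the higher, at a mean of 166 CPM in siCtrl against 146 CPM for SAR1A. The larger share of SAR1A therefore rests on the exon lengths, 6914 bases for SAR1A and 10963 for SAR1B. The log2 ratio of SAR1A to SAR1B counts differed by 0.00 after knockdown (two-sided exact permutation p 0.971) and by −0.05 with MKC8866 (exact p 0.200). Neither difference passed, against pooled SDs between libraries of 0.05 and 0.04. SAR1B and SEC24A lie head to head on chromosome 5 and share 385 exon bases in the annotation, where fragments were counted for neither gene.

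SEC23A (ENSG00000100934, chr14:39031919-39109646, minus strand) and SEC23B (ENSG00000101310, chr20:18507493-18561415, plus strand) encode the subunit that activates the GTPase of SAR1. SEC23B stood at 366, 368, 358 and 374 CPM in siCtrl and at 221, 219, 217 and 221 CPM in siXBP1. In the inhibitor experiment SEC23B stood at 368, 365, 359 and 369 CPM in Vehicle and at 277, 270.1, 269 and 281 CPM in MKC8866. Its controls were close in level in the 2 experiments, and every treated library was far below them, siXBP1 lowest. SEC23B fell by 0.74 on the log2 scale after knockdown (SE 0.04, adjusted p 2.27e-13) and by 0.41 with MKC8866 (SE 0.04, adjusted p 1.10e-08). SEC23A stood at 187, 175, 179 and 189 CPM in siCtrl and at 169, 154, 168 and 160.5 CPM in siXBP1. With MKC8866 it stood at 145, 137, 141 and 143 CPM, against 154, 159, 159 and 159 CPM in Vehicle. The treated libraries of SEC23A were all below their controls, but by a narrow margin. Its log2 fold changes were −0.17 ± 0.04 (SE) after knockdown (adjusted p 0.00319) and −0.16 ± 0.04 with MKC8866 (adjusted p 0.0133). The MKC8866 result no longer passed without Vehicle replicate 4 (adjusted p 0.0526, in a range of 1.62e-05 to 0.0526 over 15 alternatives). The paralogues therefore fell unequally. The log2 ratio of SEC23A to SEC23B counts was −1.01 ± 0.05 (SD, n = 4) in siCtrl and −0.43 ± 0.06 in siXBP1, a difference of 0.57. In Vehicle it was −1.21 ± 0.03 and in MKC8866 −0.95 ± 0.03, a difference of 0.26. The libraries of treated and control groups did not overlap in this ratio, and both differences reached the smallest p of a two-sided exact permutation test of 4 against 4, 2 of 70 arrangements (0.0286), or 0.0381 after Benjamini-Hochberg adjustment over the 16 tests of 8 pairs in 2 comparisons. Per exon length, SEC23A went from 18.4% ± 0.49 (SD, n = 4) of the summed SEC23 FPKM in siCtrl to 25.1% ± 0.82 in siXBP1. Its share was 16.4% ± 0.32 in Vehicle and 18.9% ± 0.30 in MKC8866. SEC23B remained the main SEC23 transcript in every library, at no less than 74.1% of the sum. The summed SEC23 FPKM went from 111 to 72.5 after knockdown and from 108 to 83.7 with MKC8866.

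The 4 SEC24 genes encode the subunit that binds cargo, and their products fall by sequence into a SEC24A and SEC24B pair and a SEC24C and SEC24D pair, which recognise partly different export signals. SEC24D (ENSG00000150961, chr4:118722823-118838683, minus strand), known for the export of procollagen, stood at 191, 188, 192 and 194 CPM in siCtrl. In siXBP1 SEC24D stood at 54.6, 49.2, 53.6 and 49.4 CPM. In the inhibitor experiment it stood at 188, 187, 179 and 182 CPM in Vehicle and at 91.3, 88.6, 88.0 and 88.8 CPM in MKC8866. Both controls were close to each other, the MKC8866 libraries lay below them and nearer to siXBP1, and the siXBP1 libraries were lowest, with a tight spread in every group. SEC24D changed by a log2 of −1.89 ± 0.04 (SE) after knockdown, 3.71-fold lower, with an adjusted p of 1.72e-18 and rank 6 by p among the 21021 tested genes. With MKC8866 the log2 fold change was −1.05 ± 0.04 (SE), 2.07-fold lower, with an adjusted p of 3.06e-15 and rank 7 of 21045. SEC24D had the largest fold change of the 10 members in both comparisons.

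SEC24C (ENSG00000176986, chr10:73744384-73772161, plus strand), the closest paralogue of SEC24D, stood at 280.3, 323, 279 and 300.2 CPM in siCtrl and at 172, 176, 157 and 177 CPM in siXBP1. In Vehicle it stood at 264, 234, 247 and 261 CPM and in MKC8866 at 210, 182, 215 and 238 CPM. The siXBP1 libraries were all low, whereas MKC8866 replicate 4 lay above Vehicle replicate 2, and this gene had the widest spread of the members in MKC8866. SEC24C fell by 0.80 on the log2 scale after knockdown (SE 0.05, adjusted p 9.00e-12) and by 0.25 with MKC8866 (SE 0.06, adjusted p 0.00641). SEC24A (ENSG00000113615, chr5:134648789-134727823, plus strand), the closest paralogue of SEC24B, ranged over 124 to 134 CPM in siCtrl and 80.4 to 84.8 CPM in siXBP1. Its Vehicle libraries ranged over 157 to 171 CPM and its MKC8866 libraries over 134 to 142 CPM. SEC24A was lower in both treated groups than in their own controls without overlap, although its 2 control groups did not overlap each other either. Its MKC8866 libraries lay above its siCtrl libraries, the lowest of them barely so (133.7 against 133.6 CPM). It fell by 0.64 on the log2 scale after knockdown (SE 0.04, adjusted p 4.17e-11) and by 0.26 with MKC8866 (SE 0.04, adjusted p 9.62e-05). SEC24B (ENSG00000138802, chr4:109433772-109540896, plus strand), known for the export of a planar polarity protein, stood at 95.6, 97.4, 98.3 and 97.0 CPM in siCtrl and at 107, 94.7, 100.1 and 102 CPM in siXBP1. In Vehicle it stood at 100.2, 95.8, 96.9 and 101 CPM and in MKC8866 at 103, 103, 103 and 105 CPM. The knockdown groups of SEC24B overlapped, while its MKC8866 libraries all lay slightly above its Vehicle libraries, as they did for 4.03% of all tested genes. The log2 fold changes were 0.05 ± 0.04 (SE, adjusted p 0.418) and 0.07 ± 0.04 (adjusted p 0.415), and neither passed.

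Ratios between paralogues within a library, which need no scaling, showed how the SEC24 family shifted. The log2 ratio of SEC24B to SEC24D counts was −0.98 ± 0.02 (SD, n = 4) in siCtrl and 0.96 ± 0.06 in siXBP1, a difference of 1.94. In Vehicle this ratio was −0.90 ± 0.04 and in MKC8866 it was 0.22 ± 0.03, a difference of 1.12. The ratio thus shifted upwards in all treated libraries, from negative in every control library to positive in every treated one. The ratio of SEC24A to SEC24D differed by 1.25 after knockdown and by 0.79 with MKC8866, and that of SEC24C to SEC24D by 1.10 and 0.79. The ratio of SEC24B to SEC24C differed by 0.85 and 0.33, and that of SEC24A to SEC24B by −0.69 and −0.33. For these 5 pairs the treated and control libraries did not overlap in either experiment, each with a two-sided exact permutation p of 0.0286 (adjusted 0.0381). The ratio of SEC24A to SEC24C did not pass, with a difference of 0.15 after knockdown (exact p 0.114) and 0.00 with MKC8866 (exact p 1.0), against pooled SDs of 0.11 and 0.15. Of all 16 ratio tests 12 passed, 6 of 8 in each comparison. The 6 ratios among the 4 SEC24 genes reuse the same genes, so these passes are not independent of each other. The share of other gene pairs that would pass was not computed.

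Per exon length, and with SEC24C as counted, SEC24D made up 17.3% ± 0.66 (SD, n = 4) of the summed SEC24 FPKM in siCtrl and 7.67% ± 0.48 in siXBP1. Its share was 17.3% ± 0.58 in Vehicle and 10.3% ± 0.52 in MKC8866. The share of SEC24D was close between the controls and lower in every treated library. The share of SEC24B went from 16.7% ± 0.54 to 28.4% ± 1.08 after knockdown and from 17.6% ± 0.07 to 22.7% ± 0.97 with MKC8866. SEC24C held the largest share in every group, at 49.7% in siCtrl, 46.9% in siXBP1, 43.9% in Vehicle and 45.2% in MKC8866. SEC24A made up 16.2% in siCtrl and 16.6% to 17.6% in the siXBP1 libraries, and 21.2% in Vehicle and 21.8% in MKC8866. SEC24D lost and SEC24B gained the most in share in both experiments, in a family whose summed FPKM went from 111 to 68.0 after knockdown and from 107 to 87.4 with MKC8866.

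**Figure D3:**
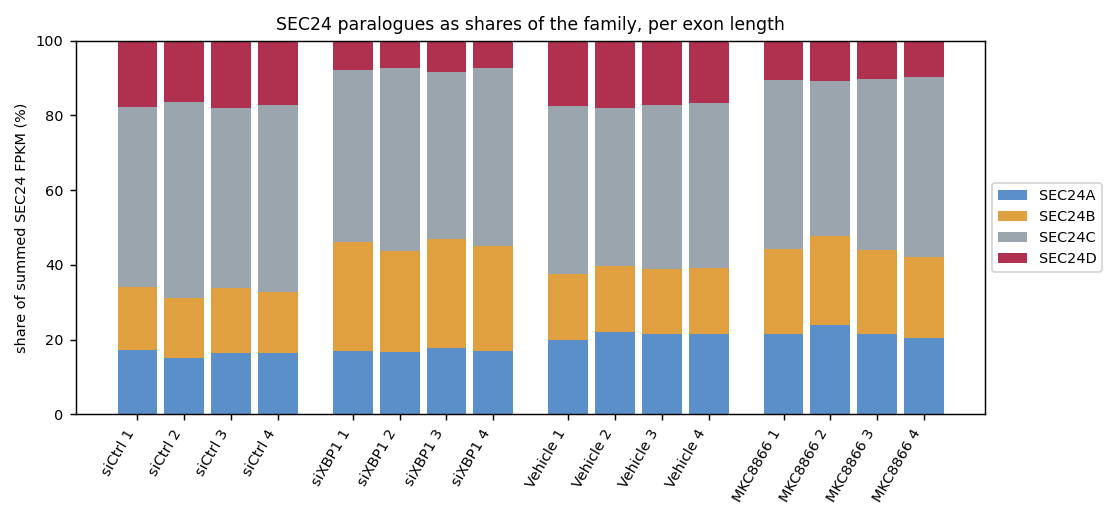
Share of each SEC24 paralogue in the summed FPKM of the 4 SEC24 genes (vertical axis, percent) in each of the 16 libraries, as stacked bars. SEC24D narrows from a mean of 17.3% in both control groups to 7.67% in siXBP1 and 10.3% in MKC8866, and SEC24B widens to 28.4% and 22.7%.

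SEC13 (ENSG00000157020, chr3:10293131-10321178, minus strand), which is also part of the nuclear pore, forms the outer cage with SEC31A (ENSG00000138674, chr4:82818661-82901166, minus strand). SEC13 ranged over 141 to 152 CPM in siCtrl and 96.5 to 105 CPM in siXBP1, and over 142 to 149 CPM in Vehicle and 111 to 118 CPM in MKC8866. SEC31A ranged over 298 to 309 CPM in siCtrl and 190 to 207 CPM in siXBP1, and over 272 to 276 CPM in Vehicle and 223 to 245 CPM in MKC8866. Both cage genes were lower in all treated libraries than in all of their controls. SEC13 fell by 0.55 on the log2 scale after knockdown (SE 0.04, adjusted p 4.78e-10) and by 0.34 with MKC8866 (SE 0.04, adjusted p 2.33e-06). SEC31A fell by 0.63 after knockdown (SE 0.04, adjusted p 1.06e-11) and by 0.22 with MKC8866 (SE 0.04, adjusted p 0.000529). SEC31B (ENSG00000075826), the paralogue of SEC31A outside the 10 genes, was weakly expressed, at a mean of 0.41 FPKM in siCtrl, 0.61 in siXBP1, 0.55 in Vehicle and 0.49 in MKC8866. It stood at 3.41, 3.43, 3.78 and 2.27 CPM in siCtrl and at 5.45, 4.62, 3.98 and 5.32 CPM in siXBP1, with 77 counts in its lowest library. SEC31B was higher in all siXBP1 libraries than in all siCtrl libraries. Its log2 fold change was 0.59 ± 0.14 (SE, adjusted p 0.00237) after knockdown and −0.17 ± 0.13 (adjusted p 0.613) with MKC8866, the latter not passing. It went from 1.21% ± 0.24 (SD, n = 4) of the summed SEC31 FPKM in siCtrl to 2.76% ± 0.30 in siXBP1, so SEC31A made up nearly the whole family throughout.

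The difference between the responses to knockdown and to MKC8866 was tested directly over all 16 libraries in edgeR, on 20357 genes. It was called negative, a larger fall or smaller rise after knockdown, for 7 of the 10 coat genes, where 12.7% of all tested genes were so called. It was called positive for 0 coat genes, also at an unadjusted p under 0.05, where 10.6% of all tested genes were so called. The median difference was −0.27 over the coat genes and 0.01 over all tested genes. SEC24D had the largest, at −0.84 ± 0.06 (SE, adjusted p 7.18e-13), followed by SEC24C at −0.54 (adjusted p 7.30e-06) and SEC31A at −0.41 (adjusted p 4.60e-07). SEC24A followed at −0.38, SEC23B at −0.33, SEC13 at −0.21 and SAR1B at −0.16. The inner and outer coat thus fell further in the knockdown experiment, with SEC23A and SEC24B as exceptions. For SAR1B the adjusted p of 0.0314 was close to the threshold, and it did not pass when weakly counted genes were kept (0.0690), nor in 5 of 16 fits with a library left out, within a range of 0.00854 to 0.0794 over 21 alternatives. These were the fits without siCtrl replicate 2 (0.0518), siCtrl replicate 4 (0.0786), siXBP1 replicate 1 (0.0691), Vehicle replicate 3 (0.0794) or MKC8866 replicate 2 (0.0705). The difference was not called for SAR1A (−0.11), SEC23A (−0.01) and SEC24B (−0.02). For SEC31B, the weakly expressed paralogue outside the 10 genes, it was called positive, at 0.76 ± 0.21 (SE, adjusted p 0.00685). The 2 experiments have separate controls and pretreatment times, so this test cannot tell the kind of inhibition from the experiment it was made in.

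Across the 16 libraries, the gene whose log2 CPM was most like that of SEC24D among 15037 genes was SEC23B (Pearson r 0.997), its partner in the inner coat. NFXL1 (r 0.993), CDC6 (0.992), LMAN1 (0.991) and BHLHA15 (0.990) came next. Mean SEC24D and SEC23B levels had the same order of groups, the controls high, MKC8866 between and siXBP1 lowest, and so did those of the other 4 genes. Vehicle was slightly above siCtrl for BHLHA15 and slightly below it for the other genes and SEC24D. The 16 points fall in 4 groups, so these values describe shared group means. After removal of the group means r was 0.18 for SEC23B, 0.51 for NFXL1, 0.19 for CDC6, −0.32 for LMAN1 and −0.24 for BHLHA15.

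Other genes of the step from ER to Golgi were counted in 3 lists. The lists were chosen with earlier results of these data known, so their counts and medians are descriptive. Of the exit-site and assembly factors, 8 of 9 could be tested (SEC16B was not), and 5 were lower after knockdown, where 18.2% of all tested genes were: PREB (−0.76), SEC16A (−0.45), KLHL12 (−0.21), MIA3 (−0.20) and PDCD6 (−0.14). The median log2 fold change over the 8 was −0.17, where that of all tested genes was 0.00, and the highest value was 0.02 for MIA2. With MKC8866, PREB (−0.73) and TFG (−0.15, adjusted p 0.0482, close to the threshold) were lower, 2 of 8 where 3.11% of all tested genes were, with a median of −0.08 and the highest value at 0.03 for KLHL12. PREB, the exchange factor that loads SAR1 with GTP, ranged over 86.4 to 95.8 CPM in siXBP1 against 148 to 156 CPM in siCtrl, and over 84.1 to 101 CPM in MKC8866 against 146 to 161 CPM in Vehicle. Its difference between the responses was −0.02 (adjusted p 0.848) and did not pass, whereas those of SEC16A (−0.35), KLHL12 (−0.24) and MIA3 (−0.19) did.

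Of the 8 cargo receptors, 3 were lower after knockdown (18.2% of all tested genes): LMAN1 (−0.98), SURF4 (−0.57) and MCFD2 (−0.45). The median over the 8 was −0.04, with the highest value at 0.09 for ERGIC3. With MKC8866, 4 were lower (3.11% of all tested genes), LMAN1 (−0.49), MCFD2 (−0.47), SURF4 (−0.41) and ERGIC2 (−0.19), with a median of −0.13 and the highest value at 0.14 for ERGIC1. LMAN1 and MCFD2 encode a complex that carries coagulation factors, and both were lower in each experiment, as was SURF4, a receptor for soluble cargo. The difference between the responses was called negative for LMAN1 (−0.49, adjusted p 3.56e-08). It was also called for SURF4 (−0.16, adjusted p 0.0498), ERGIC1 (−0.15, 0.0470) and ERGIC3 (0.15, 0.0493), all just under the threshold. The median difference over the 8 receptors was 0.06, beside 0.01 over all tested genes. Of the 9 genes of tethering and fusion with the Golgi, 8 were lower after knockdown (18.2% of all tested genes), from BET1 (−1.65) through GOSR2 (−0.69), USO1 (−0.62), SEC22B (−0.55), STX5 (−0.49), SCFD1 (−0.32) and RAB1A (−0.31) to YKT6 (−0.22). RAB1B (0.10) was not called, and the median over the 9 was −0.49. With MKC8866, 7 of 9 were lower (3.11% of all tested genes): BET1 (−0.75), GOSR2 (−0.44), STX5 (−0.43), RAB1A (−0.37), USO1 (−0.29), SEC22B (−0.28) and YKT6 (−0.21), with a median of −0.29 and the highest value at 0.07 for RAB1B. BET1, a SNARE of vesicle fusion, ranged over 8.65 to 10.7 CPM in siXBP1 against 27.7 to 34.5 CPM in siCtrl, with no overlap. Its difference between the responses was −0.89, and those of USO1 (−0.33), SEC22B (−0.27), GOSR2 (−0.25) and SCFD1 (−0.18) also passed. The coat and the fusion genes had the lowest medians, and the cargo receptors and exit-site factors had medians nearer to 0.

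**Figure D4:**
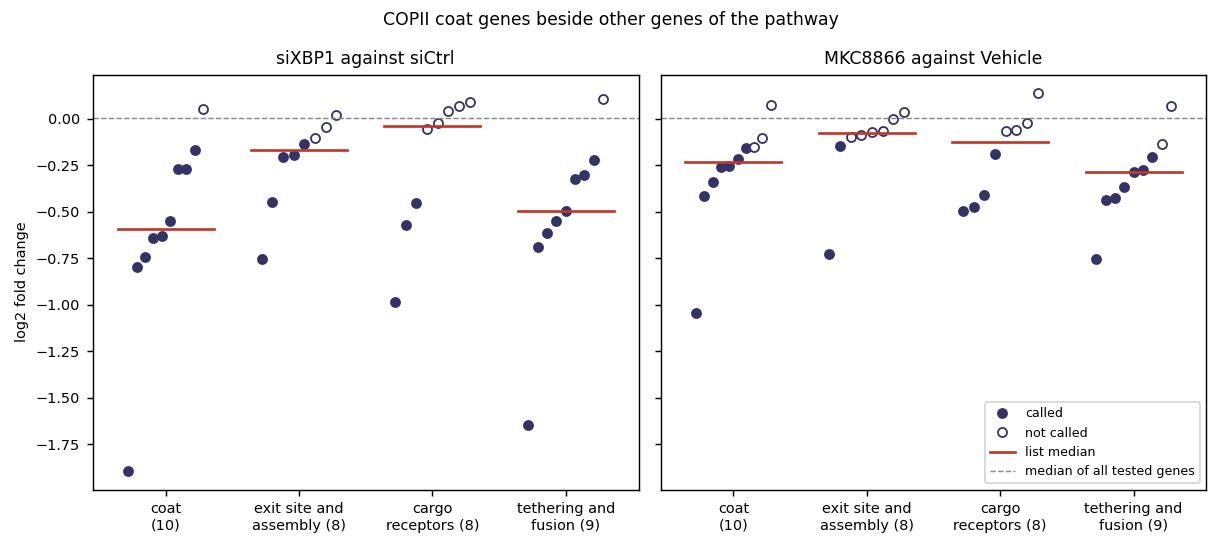
Log2 fold change (vertical axis) of each gene of the coat and of 3 lists of the ER to Golgi step, in siXBP1 against siCtrl (left) and MKC8866 against Vehicle (right), with filled dots for an adjusted p under 0.05 and a bar for the list median. The medians after knockdown are −0.59 for the coat, −0.17 for exit-site factors, −0.04 for cargo receptors and −0.49 for tethering and fusion.

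The counts are of transcripts, so coat protein and the number of vesicles were not measured. All groups had 3 h of thapsigargin, and how the coat genes respond to it was not measured in these libraries.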

How the data were processed

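RNA was sequenced from 16 LNCaP libraries. The deposited values are raw counts of fragments per gene: according to the submission, the authors aligned reads to GRCh38 with STAR 2.5.2a and counted them with featureCounts 1.5.0 on Ensembl genes, blind to strand, leaving out fragments that touched more than 1 gene. Symbols were matched for 56948 of 58051 identifiers. Here, edgeR 4.0.16 in R 4.3.3 (TMM scaling, quasi-likelihood F test, two-sided) compared each treatment with its control, without pairing, keeping genes that exceeded 5 counts in 1 or more libraries of both groups. The Benjamini-Hochberg adjustment ran over all tested genes, with calls under 0.05. The difference between responses was a contrast of 4 group means over 16 libraries. SE came from the log2 fold change and F. FPKM used the exon length in the count table. Log2 ratios of paralogue counts were tested by exact permutation over libraries, two-sided, for 8 pairs in 2 comparisons. The biological coefficient of variation was 5.40% (knockdown) and 4.97% (MKC8866), and library pairs within a group correlated at 0.995 to 0.997 in log2 CPM over 15037 genes.

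Named genes are the 10 members, SEC31B, XBP1, DNAJB9, the called genes and extremes of 3 pathway lists, and the 5 genes most correlated with SEC24D; the markers checked were 8 luminal and 14 of other cell types. Members and lists were chosen with earlier results of these data known. Alternatives were DESeq2 1.42.0, RLE size factors, no filter, at least 10 counts in every library, a replicate block, 16 libraries in one fit, an adjusted p under 0.01, fold-change differences in place of count ratios, and each library left out. The edgeR fit of a treatment against its control was tested on counts simulated from the knockdown comparison. The permutation test was checked on small sets with known answers. The other steps were not tested in this way. Ratios, shares and promoter searches were made with scipy 1.17.1, numpy 2.4.6 and pandas 2.3.3, the figures with matplotlib 3.10.9.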

Additional observations from a re-analysis of the deposited data

Results flagged for a closer look

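In the Vehicle group, SEC23A replicate 1 lay apart from the other 3 libraries, at 154.138 CPM against 159 CPM in each of them. Its gap to the nearest of them was a larger part of the range of the group than the critical value of Dixon's test for 4 samples. It was the only such value among the 40 sets of 4 libraries examined (10 genes in 4 groups), and chance sets apart about 1 in 20 such sets.

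For 7 of the 10 coat genes the response to XBP1 knockdown differed from the response to MKC8866 in edgeR's test of the difference, called negative for 12.7% and positive for 10.6% of all 20357 tested genes. On the log2 scale, knockdown minus MKC8866, the differences were −0.163772 for SAR1B, −0.206004 for SEC13, −0.326192 for SEC23B and −0.379061 for SEC24A. They were −0.411399 for SEC31A, −0.542102 for SEC24C and −0.84322 for SEC24D. All 7 were negative, a larger fall after knockdown, and the experiments differ in their controls and in the time before thapsigargin. The call for SAR1B was lost with no filter on low counts (adjusted p 0.0690) and in 5 of 16 fits with a library left out.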

How the results depend on the processing

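All 70 single-gene results of the coat after knockdown under other settings, and all 80 with a library left out, kept their direction and side of the threshold, and the coat count stayed at 9 lower and 0 higher. With MKC8866 65 of 70 and 78 of 80 did so, the exceptions being SAR1A, SAR1B and SEC23A. SAR1A (adjusted p 3.71e-05) and SAR1B (0.00531) passed with the replicate block, and SEC23A did not at a threshold of 0.01. The replicate block raised the counts of all genes with MKC8866 from 654 lower and 287 higher to 1484 and 1262, and of coat genes from 7 to 9 lower; it left the knockdown at 9. The labels do not say what the replicate numbers share. Deviations of the same number correlated at 0.01 to 0.06 in the knockdown (0 of 4 pairs over 0.1, 0 of 8 samples best with their own number) and at 0.08 to 0.33 with MKC8866 (3 of 4 pairs, 6 of 8 samples), and samples were taken as unpaired because not every pair was over 0.1. Under 0.01, 139 genes were higher with MKC8866, and the difference between responses was called for 3133 genes in place of 4735. With a library left out, 180 to 484 genes were higher and 527 to 833 lower with MKC8866. The difference between responses changed sign for SEC23A without siCtrl replicate 1 or 4, siXBP1 replicate 2, Vehicle replicate 1 or MKC8866 replicate 1 (range −0.0324 to 0.0145 over the fits), and for SEC24B without siXBP1 replicate 2 (range −0.0478 to 0.00595). Both were uncalled and near 0, and the cause was not tested. Of 160 such single-gene values with a library left out, 149 kept direction and call, the others being these 6 sign changes and 5 for SAR1B, and 48 of 50 under other settings did, both exceptions being SAR1B. All 160 alternative values of the paralogue ratios stayed within 1 SD. For the replicate block and for leaving out 1 of 4 libraries, the arithmetic fixed this in advance, so it shows no stability. The sign-flip test of 4 pairs cannot go below 0.125. RLE in place of TMM moved the median of all genes from 0.00 to 0.01 after knockdown and left SEC24B at 0.05 and 0.07. Depth limits SEC31B (77 counts in its lowest library) more than the members, whose lowest count was 1533.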
